A study of Mus musculus with 4 samples.

Results

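A set of 5 windows of the mouse genome, named for 6 genes of the cardiac sarcomere (Myh6, Myh7, Actc1, Ttn, Tnnt2 and Actn2), was examined in peak lists of TCF7L2, GATA4 and H3K27ac. The members are all intervals that share at least 1 bp with a window: 109 of the 86315 intervals in the 3 lists, made up of 1 of 774 TCF7L2 peaks, 35 of 10530 GATA4 peaks and 73 of 75011 H3K27ac peaks. In mm9, the build of the files, the windows are chr14:55510000-55665000 for the neighbouring genes Myh6 and Myh7 (155 kb), chr2:113820000-113940000 for Actc1 (120 kb), chr2:76492000-76871000 for Ttn (379 kb), chr1:137682000-137800000 for Tnnt2 (118 kb) and chr13:12311000-12483000 for Actn2 (172 kb). An mm9 gene annotation was not used here, so how each window lies on its gene was not checked, and windows around other sarcomere genes were not analysed here.

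The lists come from chromatin immunoprecipitation and sequencing of ventricles of wild-type C57BL/6 mice at postnatal day 6, with 10 hearts pooled per precipitation and 2 biological replicates per antibody. Each antibody has 1 list of positions, which leaves the values without a replicate error, and depth and peak height are unknown. Ventricle holds several cell types, and a mark carried by more cells and a stronger mark in some cells cannot be told apart. Peak lists hold no expression values by which the tissue label could be checked.

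The sarcomere is the contractile unit of heart muscle. Myh6 and Myh7 encode the alpha and beta heavy chains of cardiac myosin, the motor of the thick filament, and the mouse ventricle shifts from the beta to the alpha chain around birth. Actc1 encodes cardiac actin of the thin filament and Tnnt2 encodes cardiac troponin T, which ties the calcium switch to that filament. Ttn encodes titin, the giant elastic protein that spans from Z-disc to M-line, and Actn2 encodes alpha-actinin 2, which crosslinks actin at the Z-disc. H3K27ac, acetylated lysine 27 of histone H3, marks active promoters and enhancers. GATA4 is a zinc-finger factor of heart development that binds GATA motifs, and TCF7L2 is a DNA-binding partner of beta-catenin in Wnt signalling.

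Promoter sequences of all 6 genes were available from RefSeq in another build, GRCm38.p6, as 8 entries of 300 bases, 250 of them before the start and 50 after it. Because the builds differ, no peak could be placed on a start site, and the coordinates of the sequences are not comparable with those of the peaks. Exact matches were searched on both strands to the GATA motifs AGATAA or TGATAA or AGATAG or TGATAG, to the TCF/LEF motifs CTTTGAA or CTTTGAT, to the TATA box motif TATAAA and to a MEF2 motif. No 2 matches in the 6 genes overlapped. A TCF/LEF match was found in 1 of the 6 genes, Myh6, against 8.65% of all 32851 promoters in the table, and its letters CTTTGAT are in 3.73%. GATA matches were found in Myh6 and Tnnt2, against 29.8% of all promoters. A match to the MEF2 letters was found in 0 of the 6 genes, against 0.110% of all promoters. At so low a share, finding none in 6 genes does not show that MEF2 sites are absent. The TATA box motif was found in Myh6 and Actc1, against 13.6% of all promoters. Both matches lay after the annotated start, beginning at base 2 in Myh6 and base 34 in Actc1, so neither falls in the 250 bases before it. Of 24 other genes, listed for sarcomere or related contractile proteins and their regulators, 20 had an entry. Of these 20, 12 held a GATA match and 1 a TCF/LEF match. These counts are per gene, with a match in any of its entries, while the shares of all promoters are per entry. By entry, GATA matches were in 2 of 8 for the 6 genes and 14 of 28 for the others. TCF/LEF matches were in 1 of 8 and 1 of 28. These matches are letters in a sequence, not measured binding. The 250 bases before the start are shown for Myh6, which holds both motifs and shares its window with the only TCF7L2 peak, for Myh7, its neighbour without a match, and for Tnnt2. Capitals mark the GATA and TCF/LEF matches, all of which lie on the strand opposite to the gene: AGATAG read as CTATCT and CTTTGAT read as ATCAAAG in Myh6, and AGATAA read as TTATCT in Tnnt2.
Myh6, GRCm38.p6 chr14:54966608-54966857, minus strand: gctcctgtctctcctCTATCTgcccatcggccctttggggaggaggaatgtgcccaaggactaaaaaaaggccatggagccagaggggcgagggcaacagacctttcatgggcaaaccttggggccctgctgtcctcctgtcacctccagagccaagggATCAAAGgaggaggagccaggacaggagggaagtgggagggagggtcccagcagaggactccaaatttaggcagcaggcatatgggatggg
Myh7, first entry, GRCm38.p6 chr14:54994627-54994876, minus strand: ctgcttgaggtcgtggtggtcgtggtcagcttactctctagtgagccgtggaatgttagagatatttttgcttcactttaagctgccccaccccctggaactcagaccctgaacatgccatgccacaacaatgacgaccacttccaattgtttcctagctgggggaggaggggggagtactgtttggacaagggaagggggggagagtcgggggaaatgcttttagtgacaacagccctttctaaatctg
Tnnt2, first entry, GRCm38.p6 chr1:135836084-135836333, plus strand: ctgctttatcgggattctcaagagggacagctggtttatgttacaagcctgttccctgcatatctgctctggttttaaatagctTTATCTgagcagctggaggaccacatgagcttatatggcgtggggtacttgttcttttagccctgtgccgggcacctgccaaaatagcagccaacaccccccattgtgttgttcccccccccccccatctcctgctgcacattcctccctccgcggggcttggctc

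The myosin genes also carry a microRNA each, and these are shown because they lie within the locus that held the most factor peaks. In GRCm38.p6, Mir208a lies inside Myh6 and Mir208b inside Myh7. Their mature 3p arms have the same seed (bases 2 to 8, in capitals).
mmu-miR-208a-3p: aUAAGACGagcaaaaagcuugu
mmu-miR-208b-3p: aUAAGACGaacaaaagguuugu

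All 5 windows held acetylated chromatin, and in 4 of them it covered most of the window. H3K27ac peaks covered 76.7% of the Ttn window, 64.3% of the Myh6/Myh7 window, 58.4% of the Actn2 window and 57.1% of the Tnnt2 window, but only 27.7% of the Actc1 window. With the Actc1 window divided into 3 equal parts, the middle was covered to 64.7%, the left to 0% and the right to 18.25%. The chromosomes as a whole were covered to between 7.37% (chromosome 14) and 10.8% (chromosome 2). Coverage was therefore 8.73 times that of the chromosome for Myh6/Myh7, 7.40 times for Tnnt2, 7.08 times for Ttn, 6.84 times for Actn2 and 2.55 times for Actc1. Together 591.3 kb of 944 kb was acetylated, or 62.6%.

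Each window was set beside the other windows of its length, laid end to end along its chromosome. Few reached the same coverage: 2 of 477 for Ttn (0.419%), 10 of 805 for Myh6/Myh7 (1.24%), 9 of 697 for Actn2 (1.29%) and 33 of 1669 for Tnnt2 (1.98%). For Actc1, 218 of 1511 windows (14.4%) did, so that the coverage of this window as a whole was not unusual for chromosome 2. These shares describe the chromosomes and are not p-values. The median same-length window was covered to between 0.423% (the length of Myh6/Myh7) and 3.79% (the length of Ttn). These medians include windows without any H3K27ac peak. Among windows with at least 1, the median was between 5.67% (the length of Myh6/Myh7) and 8.43% (the length of Actc1).

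**Figure D1:**
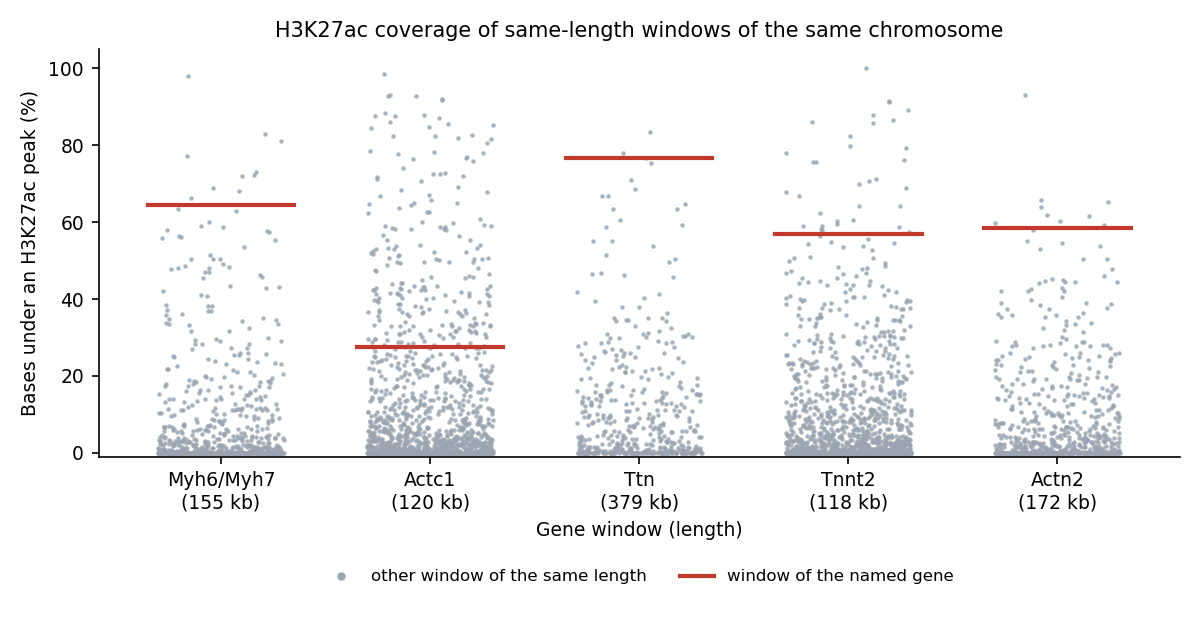
Percentage of bases under an H3K27ac peak (vertical axis) in same-length windows of the same chromosome (grey points, 1 per window, spread sideways for display) and in the window of each named gene (red line). The line lies above nearly all points for Ttn, Myh6/Myh7, Actn2 and Tnnt2 (57.1% to 76.7%), and inside the spread for Actc1 (27.7%).

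GATA4 peaks were found in all 5 windows: 14 for Myh6/Myh7, 6 each for Ttn and Tnnt2, 5 for Actc1 and 4 for Actn2. Per 100 kb this was 9.03 peaks for Myh6/Myh7 (exact Poisson 95% interval 4.94 to 15.2), 5.08 for Tnnt2 (1.87 to 11.1), 4.17 for Actc1 (1.35 to 9.72), 2.33 for Actn2 (0.634 to 5.95) and 1.58 for Ttn (0.581 to 3.45). These intervals cover counting error over peaks only and take peaks as independent, which neighbouring peaks are not. Every interval lay above the density of its own chromosome, which was between 0.347 and 0.420 per 100 kb. Among the windows, the interval of Myh6/Myh7 lay above that of Ttn, and all other pairs of intervals overlapped.

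Of the other 155 kb windows laid end to end on chromosome 14, none held 14 GATA4 peaks (0 of 805, or 0%), and the most was 12. When the windows overlapped in short steps, 1 of 8046 held 14 (0.0124%). For the other genes the count was reached by 6 of 1669 windows for Tnnt2 (0.359%), 7 of 1511 for Actc1 (0.463%), 23 of 697 for Actn2 (3.3%) and 24 of 477 for Ttn (5.03%). With the windows laid from a shifted start, the share rose to 14 of 1510 for Actc1 (0.927%) and dropped to 2 of 1668 for Tnnt2 (0.120%). Ttn, with the highest acetylation of the 5, thus had the GATA4 count that was most often reached.

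**Figure D2:**
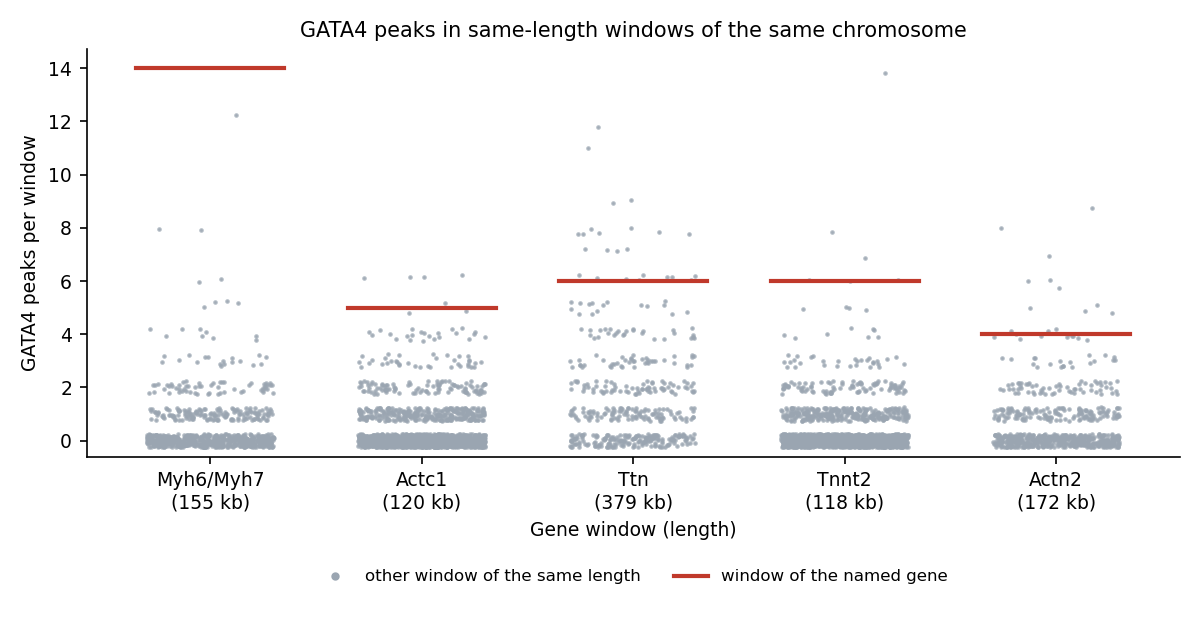
Number of GATA4 peaks (vertical axis) in same-length windows of the same chromosome (grey points, shifted slightly in both directions so that equal counts can be seen) and in the window of each named gene (red line). The 14 peaks of the Myh6/Myh7 window lie above all grey points of that column, the 805 windows laid end to end on chromosome 14, the highest of which holds 12.

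Counted against acetylated length instead, the windows fell in another order. Actc1 had 1.51 GATA4 peaks per 10 kb under H3K27ac (exact Poisson 95% interval 0.489 to 3.52), Myh6/Myh7 1.40 (0.767 to 2.36) and Tnnt2 0.891 (0.327 to 1.94). Actn2 had 0.398 (0.108 to 1.02) and Ttn 0.207 (0.0758 to 0.450). The chromosomes had between 0.318 and 0.352. The intervals of Actc1 and Myh6/Myh7 lay above the values of their chromosomes, while those of Tnnt2, Actn2 and Ttn included the value of theirs. These intervals again take peaks as independent. All 5 Actc1 peaks lay within 7542 bp, and the Myh6/Myh7 window held groups of 5 and 4 peaks, so the intervals can be too narrow. The interval of Ttn lay below those of Actc1 and Myh6/Myh7.

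**Figure D3:**
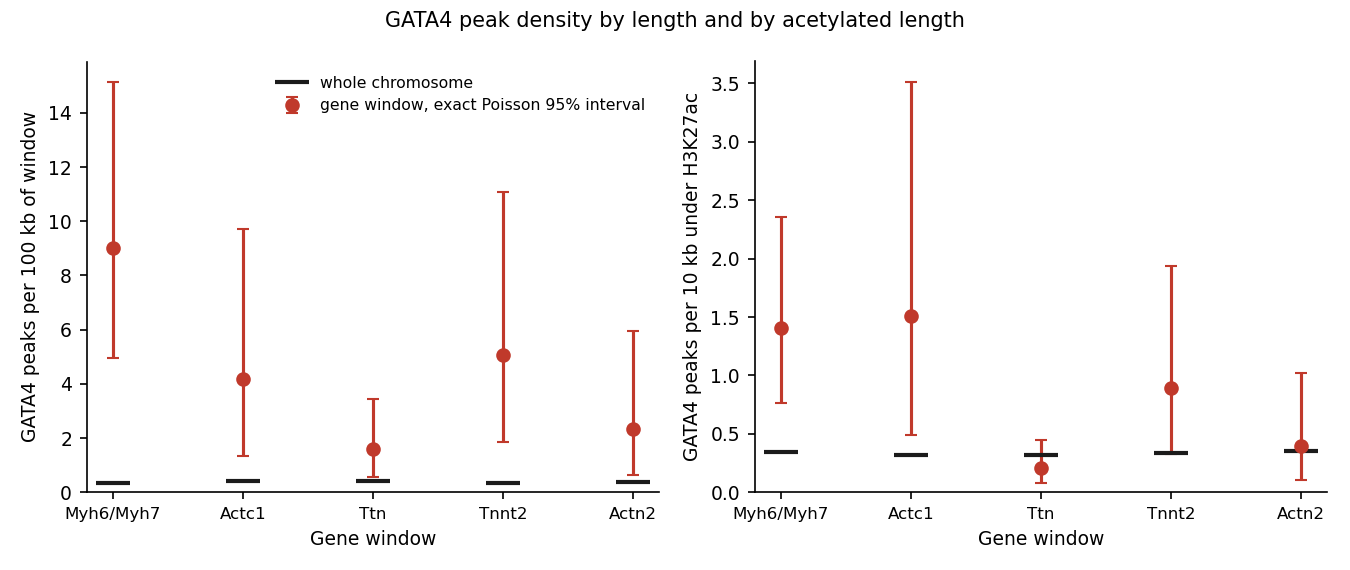
GATA4 peaks per 100 kb of window (left) and per 10 kb under H3K27ac (right) for each gene window (red points with exact Poisson 95% intervals) and for the whole chromosome (black bars). On the left all 5 intervals lie above the chromosome, and on the right only those of Myh6/Myh7 and Actc1 do.

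All GATA4 peaks of the windows lay in acetylated chromatin. Of 35 peaks, 35 overlapped an H3K27ac peak, or 100% (95% Wilson interval 90.1 to 100), against 79.4% of all 10530 GATA4 peaks and 78.1% of the 2333 on the chromosomes of the windows. The windows themselves were acetylated over 62.6% of their length, against 7.37% to 10.8% of their chromosomes. Higher coverage by itself places more peaks in H3K27ac, so these shares are not compared at equal coverage. No test was made of the difference between them. Of the 35, 34 lay wholly inside an H3K27ac peak, and the exception was an Actn2 peak at chr13:12350347-12350565 that reached 39 bp past the edge of its H3K27ac peak. Of the 73 H3K27ac peaks in the windows, 14 held GATA4, or 19.2% (11.8 to 29.7), against 8.67% of all H3K27ac peaks. One of these, of 14.4 kb, reaches past the Ttn window and holds its GATA4 peak outside it. Among those of 5 kb or more it was 11 of 24, or 45.8% (27.9 to 64.9), against 30.8% of all, among those of 2 to 5 kb 3 of 13 against 11.1%, and among those under 2 kb 0 of 36 (0% to 9.64%) against 1.57%. Within each width class the interval of the windows included the value of the whole list.

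The median GATA4 peak was 233 bp wide in the windows and 184 bp in the whole list, and 4 of 35 were 500 bp or wider (11.4%, 4.54 to 26.0) against 3.03% of all. Of these 4, 2 were in the Myh6/Myh7 window and 1 each in those of Actc1 and Tnnt2. Another GATA4 peak lay within 2 kb for 15 of the 35 (42.9%, 28.0 to 59.1), against 15.3% of all. Neighbours count each other, so the peaks are not independent and this interval is too narrow. The 15 were 8 of 14 in the Myh6/Myh7 window, 4 of 5 in that of Actc1 and 3 of 6 in that of Ttn, with 0 of 6 for Tnnt2 and 0 of 4 for Actn2. When GATA4 peaks were joined across gaps of up to 5 kb, the windows held 22 groups, of which 3 had 4 or more peaks, against 0.487% of all 9245 groups. The 2 groups with 5 peaks, in the Myh6/Myh7 and Actc1 windows, were among 17 groups of 5 or more in the whole list (0.184%). The limits of 500 bp, 2 kb and 5 kb were set after the values were seen. These shares therefore describe the peaks and are not evidence that the groups are exceptional.

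**Figure D4:**
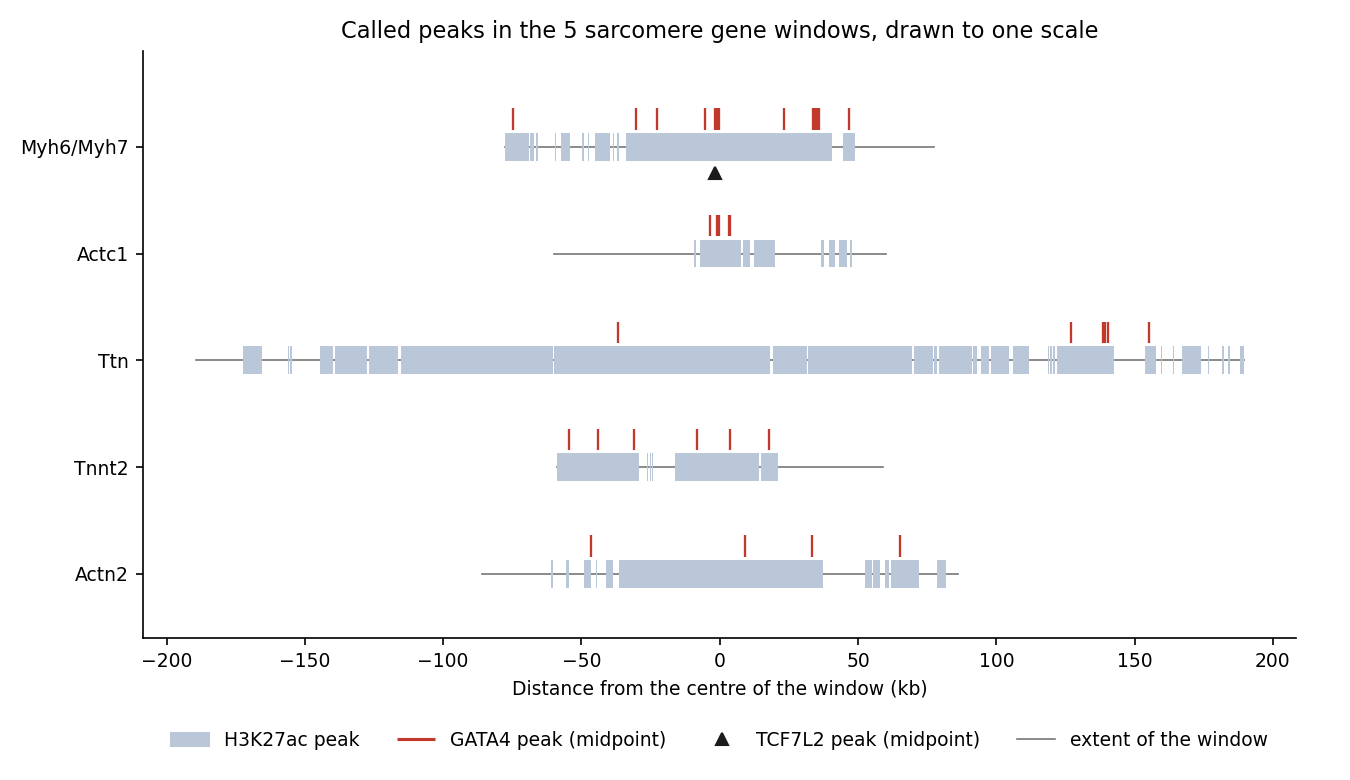
Map of the 5 windows to one scale, as distance from the window's centre in kb: extent of the window (grey line), H3K27ac peaks (blue bars, cut at the window's border), GATA4 peaks (red ticks above) and the TCF7L2 peak (black triangle below). GATA4 ticks bunch near the centre for Myh6/Myh7 and Actc1 and near the right end for Ttn, and are spread singly for Tnnt2 and Actn2.

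In the Myh6/Myh7 window a single H3K27ac peak of 74.5 kb, chr14:55553730-55628212, made up 74.7% of the acetylated length and held 12 of the 14 GATA4 peaks and the TCF7L2 peak. It ranked 80 by width among all 75011 H3K27ac peaks. The next widest H3K27ac peaks of the window were far narrower, 9.95 kb at chr14:55508589-55518534 and 5.19 kb at chr14:55542514-55547707. With the window divided into 3 equal parts, the middle part was acetylated over 100% of its length and held 7 GATA4 peaks, against 55.8% and 2 peaks on the left and 37.2% and 5 peaks on the right. In the RefSeq annotation of GRCm38.p6, Cmtm5 overlaps Myh6 and the noncoding RNA Mhrt overlaps Myh7, with Il25 and Efs on one side of the pair and Ngdn and Zfhx2 on the other. Which of these lie under the peaks was not analysed here.

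Within this broad peak GATA4 formed 2 dense groups, with a single peak of 180 bp at chr14:55610533-55610712 between them. The first held 5 peaks over 5418 bp, from 55582138 to 55587555, close to the window's centre. Its widest, chr14:55585431-55586256, spanned 826 bp and was the widest GATA4 peak of all 5 windows, ranking 35 of 10530. In the same group lay a peak of 405 bp at chr14:55587151-55587555. The second group held 4 peaks over 2442 bp, from 55621279 to 55623720, and its widest spanned 510 bp at chr14:55623211-55623720. A peak of 268 bp at chr14:55621636-55621903 was in this second group as well. The last of the 5 widest, 281 bp at chr14:55634147-55634427, stood alone outside the broad peak, in an H3K27ac peak of 4.34 kb. The remaining 9 peaks were between 125 and 264 bp wide.

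The only TCF7L2 peak of the 5 windows lay in the first group, at chr14:55585559-55585694. It was 136 bp wide, and all 136 bp were inside the GATA4 peak of 826 bp. At rank 664 of 774 by width it was among the narrower TCF7L2 peaks. In the whole lists 40.6% of TCF7L2 peaks overlapped GATA4, and 2.99% of GATA4 peaks overlapped TCF7L2. A TCF7L2 peak was present in 19 of 805 other windows of that length on chromosome 14 (2.36%).

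The other 4 windows held no TCF7L2 peak. This was the usual state of windows of their length: 3.64% of those for Actc1, 10.3% for Ttn, 3.18% for Tnnt2 and 3.44% for Actn2 held at least 1. The nearest TCF7L2 peak was 201.4 kb beyond the border for Tnnt2 (chr1:138001377-138001535, outside H3K27ac and GATA4), 994.6 kb for Ttn (chr2:75497223-75497369) and 1524.8 kb for Actc1 (chr2:112295045-112295203). Those nearest to Ttn and Actc1 overlapped both H3K27ac and GATA4. For Actn2 the nearest lay 5678 kb away (chr13:6632747-6632903), in H3K27ac but not in GATA4. With 1 peak in 944 kb the windows had 1.06 TCF7L2 peaks per Mb (exact Poisson 95% interval 0.0268 to 5.90), against 0.255 on their chromosomes, a difference that such a count cannot resolve.

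The thin filament genes differed in layout. In the Actc1 window all 5 GATA4 peaks were within 7542 bp around the centre, in a single H3K27ac peak of 15.0 kb at chr2:113872863-113887836. That peak made up 45.1% of the acetylated length, and the other 8 H3K27ac peaks held no GATA4. No H3K27ac was called over 61.8 kb on the left, from 113808764 to 113870592. The widest GATA4 peak spanned 611 bp at chr2:113879589-113880199 and ranked 135 of 10530. It was 517 bp from a peak of 171 bp at chr2:113878901-113879071, and a peak of 128 bp lay at chr2:113876460-113876587. To the right, peaks of 436 bp (chr2:113883029-113883464) and 297 bp (chr2:113883705-113884001) were 240 bp apart. The next widest H3K27ac peaks were 7.59 kb at chr2:113892262-113899848 and 3.11 kb at chr2:113923065-113926174. Protein-coding neighbours of Actc1 in GRCm38.p6 are Gjd2 and Aqr.

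In the Tnnt2 window the GATA4 peaks were spread singly, the closest pair 10337 bp apart. Of the 6, 3 lay in an H3K27ac peak of 52.9 kb that began left of the window, chr1:137658808-137711688, with widths of 213 bp (chr1:137686427-137686639), 327 bp (chr1:137696977-137697303) and 125 bp (chr1:137709789-137709913). A further 2 lay in one of 30.5 kb near the centre, chr1:137724646-137755173: the widest of the window, 557 bp at chr1:137732439-137732995, and one of 162 bp at chr1:137744727-137744888. The last, of 167 bp at chr1:137758564-137758730, was in an H3K27ac peak of 6.13 kb, chr1:137755922-137762048. Acetylation ended there, and none was called for the next 152.1 kb. Joined across gaps of up to 12.5 kb, the H3K27ac peaks formed a stretch of 408.5 kb, chr1:137353566-137762048, the longest of 1557 on chromosome 1, with 10 GATA4 peaks. That rank depends on the gap: the longest stretch touching the window was 101.2 kb, ranking 15 of 2779, with gaps of up to 3 kb, and 53.98 kb, ranking 20 of 3733, with gaps of up to 1 kb. The nearest protein-coding neighbours of Tnnt2 in GRCm38.p6 are Lad1 and Tnni1, which encodes slow skeletal troponin I, on one side and Pkp1 on the other, and which genes the stretch covers was not analysed here.

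The windows of Actn2 and Ttn had the fewest GATA4 peaks per acetylated length of the 5, with values whose intervals included those of their chromosomes. In the Actn2 window an H3K27ac peak of 73.9 kb, chr13:12360423-12434336, made up 73.5% of the acetylated length and covered the whole middle part of the window. It ranked 87 by width, close to the broad peak of Myh6/Myh7, but held 2 GATA4 peaks instead of 12: one of 226 bp at chr13:12405988-12406213 and one of 323 bp at chr13:12430093-12430415. Outside it, the widest of the window, 379 bp at chr13:12462126-12462504, lay in an H3K27ac peak of 10.1 kb at chr13:12458804-12468894, and the peak of 219 bp on the left, named above, in one of 2.56 kb. The next H3K27ac peak by width, 2.94 kb at chr13:12475705-12478646, had no GATA4. Left of the window an H3K27ac stretch of 664.1 kb, joined across gaps of up to 12.5 kb, ended 2.77 kb before the border. It ranked 1 of 1092 on chromosome 13, and its longest piece still ranked 1 with gaps of up to 3 kb (218.3 kb) and of up to 1 kb (175.2 kb). The stretch was separated from the first H3K27ac peak of the window by 27.7 kb without a call. The neighbours of Actn2 on that side in GRCm38.p6 are Mtr and Ryr2, the cardiac calcium release channel.

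In the Ttn window acetylation was spread over 33 H3K27ac peaks. With the window divided into 3 equal parts, the middle was covered to 98.2%, the left to 68.9% and the right to 62.8%. Of 38 bins of 10 kb, 21 were covered to 90% or more and 1 had none. The 3 widest H3K27ac peaks were 77.9 kb at chr2:76621743-76699637, 54.9 kb at chr2:76566218-76621109 and 37.7 kb at chr2:76713521-76751183, and across all 3 there was 1 GATA4 peak, of 279 bp at chr2:76644511-76644789. The next GATA4 peak was 163603 bp away. The other 5 were all in the right part of the window. Of these, 4 lay in an H3K27ac peak of 20.6 kb, chr2:76803414-76824023: one of 233 bp at chr2:76808393-76808625 and a group of 291 bp (chr2:76819853-76820143), 160 bp (chr2:76820570-76820729) and 176 bp (chr2:76821737-76821912). The last, of 130 bp at chr2:76836581-76836710, was in an H3K27ac peak of 4.11 kb. Joined across gaps of up to 12.5 kb, the Ttn acetylation formed a stretch of 418.2 kb, which ranked 3 by length among 1625 on chromosome 2. The longest stretch touching the window was 256.3 kb, ranking 1, with gaps of up to 3 kb and 133.4 kb, ranking 2, with gaps of up to 1 kb. The next protein-coding genes in GRCm38.p6 are Fkbp7 and Plekha3 on one side and Ccdc141 on the other.

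Of the 73 H3K27ac peaks, 5 were 50 kb or wider, or 6.85% (2.96 to 15.1), against 231 of 75011, or 0.308%, in the whole list: 2 in the Ttn window and 1 each in those of Myh6/Myh7, Tnnt2 and Actn2. A wide peak touches a window more readily than a narrow one, so the 2 shares are not alike in how peaks were picked. The interval also takes neighbouring peaks as independent, and the limit of 50 kb was set after the values were seen. GATA4 counts of the 5 wide peaks ran from 0 and 1 for Ttn through 2 for Actn2 and 3 for Tnnt2 to 12 for Myh6/Myh7. Among all 231 the median was 2 GATA4 peaks, with a range of 0 to 19. The 12 of Myh6/Myh7 were reached by 3 of the 231, itself included (1.3%), and 0 or 1, as in the Ttn peaks, was found in 71 (30.7%). TCF7L2 was in 27 of the 231 (11.7%), among them the Myh6/Myh7 peak.

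**Figure D5:**
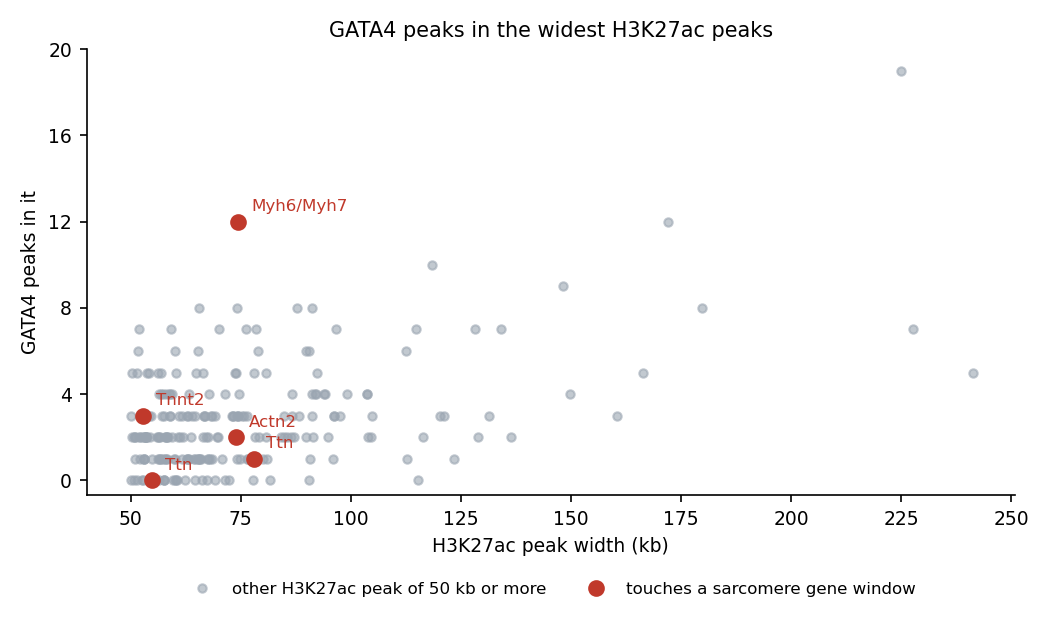
Width in kb (horizontal axis) and number of GATA4 peaks (vertical axis) of the 231 H3K27ac peaks of 50 kb or more, with the 5 that touch a sarcomere gene window in red. At similar widths of 73.9 to 77.9 kb, the Myh6/Myh7 peak holds 12 GATA4 peaks, the Actn2 peak 2 and the wider Ttn peak 1.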

How the data were processed

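The study profiled TCF7L2, GATA4 and H3K27ac in ventricles at postnatal day 6; an input sample belongs to the series and was not analysed here. The authors deposited 1 list per antibody with the chromosome, start and end of each peak and no other value. MACS2 2.1.1.20160309.0, deepTools, Bowtie2 2.2.6.2 and FastQC 0.10.0 are named, with the build mm9, per the submitters' processing notes. The peak threshold, and how the 2 replicates became 1 list, is not given in the sources used here. A looser threshold would widen peaks and raise coverage.

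Intervals sharing 1 bp or more with a window were counted, and coverage was cut at its borders. Same-length windows ran end to end from position 1 to the last position seen in the lists, without those touching the gene's window. Shares carry 95% Wilson intervals and densities exact Poisson intervals; no test was made. Positions are 1-based. By rule, every factor peak was named (the 5 widest in a window with over 10) and the 3 widest H3K27ac peaks of each window. The genes, windows and motif lists were chosen with earlier results of these data known, and the limits of 50 kb, 500 bp, 2 kb and 5 kb were set after the values were seen. Counting was tested on simulated intervals. The software was scipy 1.17.1, matplotlib 3.10.9, pandas 2.3.3 and numpy 2.4.6 under Python 3.11.15.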

Additional observations from a re-analysis of the deposited data

How the results depend on the processing

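Of 68 alternatives, 49 kept their value within 1.5 times the count or stretch length, or within the 95% interval of the share. For coverage that interval took each kb of the window as 1 trial, although neighbouring kb are not independent. Some of the 49 had an outcome fixed in advance, so their number overstates what was tested. Among these was the GATA4 count of Myh6/Myh7 in windows with H3K27ac, a subset of windows of which none reached it. All 35 GATA4 peaks stayed in H3K27ac when 50% of the peak or its midpoint had to be covered, and when H3K27ac peaks narrower than the median were left out; allowing 1 kb of distance could not lower the share, nor could taking only the 23 GATA4 peaks of the median width or wider. Windows shortened by 25 kb at each end were covered more, to 81.6% for Myh6/Myh7, 83.2% for Ttn, 71.5% for Actn2 and 37.0% for Actc1. Extended by 25 kb, they were covered less for Myh6/Myh7 (53.4%), Ttn (71.8%), Actn2 (55.1%) and Tnnt2 (54.1%). The extended Actc1 window was covered more, to 30.8% against 27.7%. Among same-length windows with at least 1 H3K27ac peak, 23.3% reached the coverage of Actc1, 3.69% that of Tnnt2, 2.27% that of Myh6/Myh7 and 1.97% that of Actn2, and 5.02% reached the GATA4 count of Actn2, 0.747% that of Actc1 and 0.671% that of Tnnt2, since fewer windows are counted by construction. Laid from a shifted start, 0.120% reached the GATA4 count of Tnnt2 and 0.927% that of Actc1. The longest stretches were shorter with gaps of up to 3 kb (90.4 kb for Myh6/Myh7, 256.3 kb for Ttn, 101.2 kb for Tnnt2) or 1 kb (74.5 kb, 133.4 kb and 53.98 kb, and 18.1 kb for Actc1), since fewer peaks are joined by construction. The stretch left of Actn2, tried after seeing the data, broke into pieces of at most 218.3 kb and 175.2 kb. Without counts or scores, neither the depth nor the strength of any peak is known, and an absent call does not show absent binding. No paired analysis was possible because each antibody has 1 list.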
